A study of Rattus norvegicus with 6 samples.

Results

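Glucose is taken up by carrier proteins, split to pyruvate by glycolysis, and either passed to mitochondria or reduced to lactate, which leaves the cell through monocarboxylate transporters. The pentose phosphate pathway branches off at glucose 6-phosphate and yields NADPH and ribose phosphates. Most steps are served by several isozymes encoded by different genes, and in nervous tissue neurons are known for a high demand for ATP and a use of lactate that glia supply. Described here are 39 genes of these routes, chosen by symbol from the deposited count table of 56748 gene rows, where they occupy 40 rows because Aldoa is listed under 2 identifiers. All 40 rows passed the filter on low counts, with 16993 rows tested in all. The genes and their grouping into 14 steps follow enzymatic function.

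The libraries are poly(A)-selected RNA-seq of cells labelled as primary dorsal root ganglion neurons of Rattus norvegicus, the sensory neurons beside the spinal cord. One set of 3 libraries (EVadMu) came from neurons given extracellular vesicles of acutely denervated muscle, muscle that had recently lost its nerve supply. The other 3 (EVMu) came from neurons given vesicles of innervated muscle. Both groups analysed here thus received muscle vesicles, so a rise in EVadMu cannot be told from a fall in EVMu. The labels give no genotype, age, dose or time, and they do not say whether replicates are separate cultures, so the p-values reflect variation among these 6 libraries that may be technical. Gene identifiers and the named build, mm39, are those of mouse although the label says rat, a mismatch whose effect on the counts was not tested.

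The groups differed across most of the transcriptome, with 80.0% of tested genes called by edgeR's quasi-likelihood test at an adjusted threshold of 0.05, 39.2% higher and 40.8% lower in EVadMu. Library totals were 16551228 to 16699450 counts in EVadMu and 14853115 to 17019877 in EVMu. Levels are CPM, read counts relative to library size after TMM scaling, and fold changes are EVadMu over EVMu on the log2 scale with the standard error of the fit. Markers of the labelled cell type were present, with Tubb3, a neuronal tubulin, at 512 ± 6.00 CPM in EVadMu and 1217 ± 14.6 CPM in EVMu (SD, n = 3 each). Of 12 neuron markers, 10 were lower in EVadMu and 1 higher, and their summed level was 3467 to 3578 CPM in EVadMu and 5763 to 5970.2 CPM in EVMu. Fibroblast markers were lower for 11 of 12 (609.9 to 629.8 CPM in EVadMu, 6832 to 6909.7 CPM in EVMu) and Schwann and satellite glia markers for 9 of 12 (2023 to 2088 CPM in EVadMu, 4129 to 4249 CPM in EVMu). The fibroblast marker Thy1 was higher, at 272 CPM in EVadMu and 253 CPM in EVMu. Among glia markers Apoe was higher, at 1072 CPM in EVadMu and 743 CPM in EVMu, and S100b and Ncmap did not pass. Thy1 and Apoe are large parts of the EVadMu sums of their lists. Endothelial and mural markers were lower for all 9 of 10 that were tested (119 to 122 CPM in EVadMu, 778 to 807 CPM in EVMu). Of 12 macrophage and leukocyte markers 10 were tested, with 8 lower and Cd68 higher (sum 135 to 141 CPM in EVadMu, 97.8 to 105 CPM in EVMu). Of 10 skeletal muscle markers 6 were tested, with 5 higher and Des lower (sum 24.5 to 30.3 CPM in EVadMu, 8.30 to 9.46 CPM in EVMu). Some markers reached the filter's level in all libraries of only the group where they were high, which already favoured their direction. These were 6 of the 8 lower macrophage and leukocyte markers, 3 of the 5 higher muscle markers (Ckm, Myh4 and Tnnt3), 2 fibroblast markers and 1 endothelial and mural marker. No marker of these lists was at 0 counts in either group, fewer cells of a type and less RNA per cell cannot be told apart in bulk libraries, and the part of cell composition in the results below was not tested.

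Transcripts of glycolysis, lactate handling and the pentose phosphate pathway were mostly higher in EVadMu, with isozymes of 1 step often moving apart. Of the 40 rows, 28 were higher (70.0%, against 39.2% of all tested genes), 10 lower (25.0%, against 40.8%) and 2 did not pass. A rise of at least 2-fold was found for 17 rows, where 17.6% of all tested genes rose that far, and a fall of at least 2-fold for 3 rows, where the share of all tested genes was 23.5%. The median log2 fold change of the 40 rows was 0.68, beside -0.02 over all tested genes. The libraries of the groups did not overlap for 37 rows (92.5%), where 80.7% of all tested genes did not overlap. The 3 rows with overlap were Ldhb, Rpia and Rpe. Genes with more reads are more readily called and separated, and several rows were among the most abundant tested genes. By mean CPM, Aldoa, Pkm, Eno1 and Pgk1 were at percentiles of 99.6 to 99.9, while Hk3 was at 8.13. The part of read level in the shares called and without overlap was not tested. Reads of all 40 rows together made up 1.71, 1.72 and 1.72% of the counts in the EVadMu libraries and 0.726, 0.719 and 0.726% in the EVMu libraries. The 3 rows with a fall of at least 2-fold, Slc2a4, Hk3 and Pfkfb1, reached the filter's level only in EVMu, so their entry into the test already favoured a fall. Of the other 37 rows, 7 were lower, and the lowest of them was at -0.77.

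**Figure D1:**
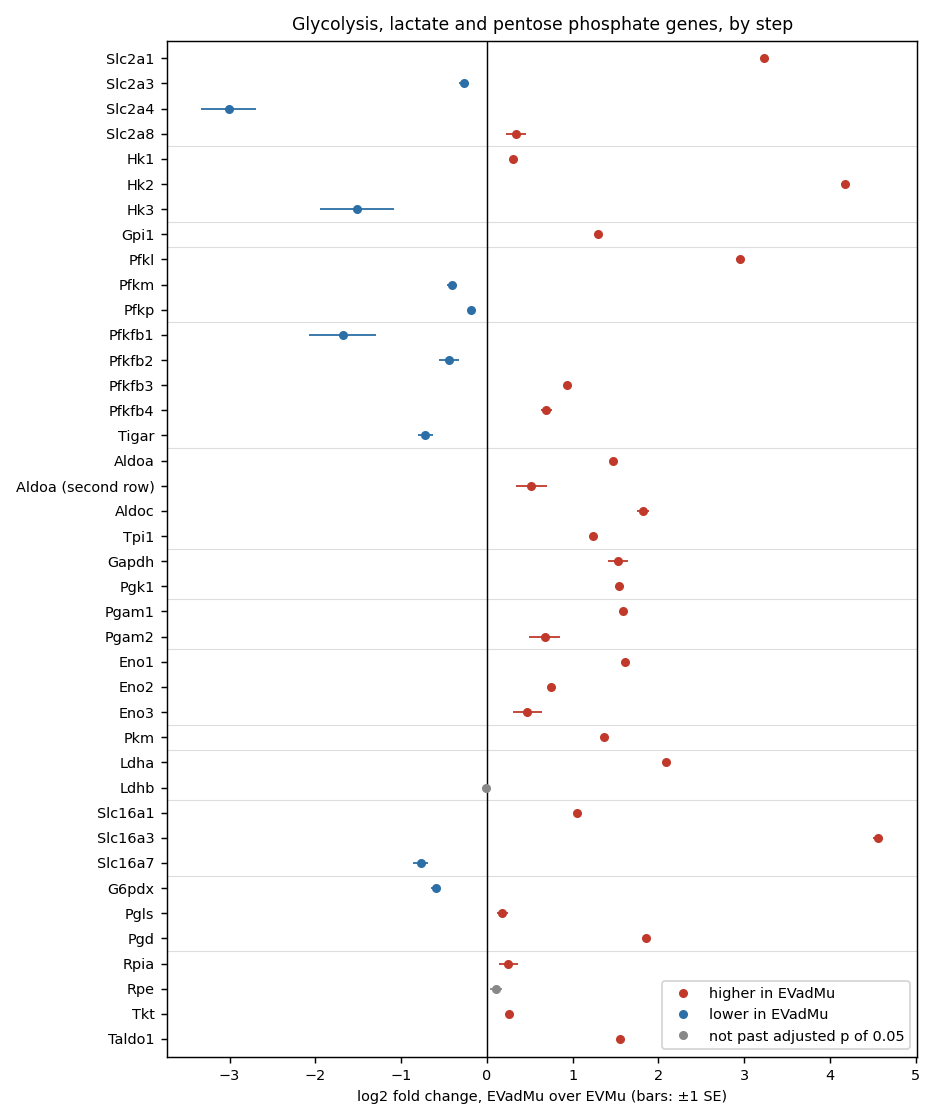
Log2 fold change of each row, EVadMu over EVMu, with bars of 1 SE, in the order of the steps from glucose transport at the top to the non-oxidative pentose phosphate branch at the bottom. Points on the right are higher in EVadMu; Slc16a3 at 4.56 and Hk2 at 4.18 lie farthest right, and Slc2a4 at -3.01 farthest left.

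**Figure D2:**
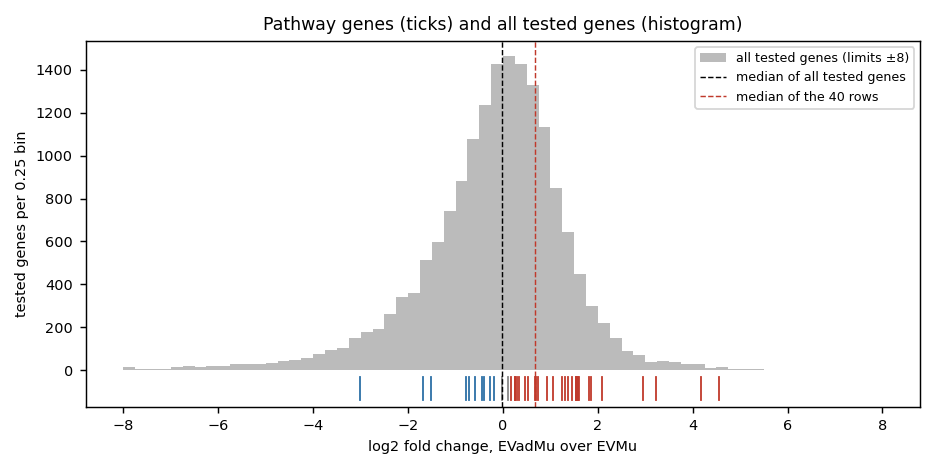
Histogram of the log2 fold change of all 16993 tested genes, with the 40 pathway rows as ticks below it and both medians as dashed lines. The median of the pathway rows, 0.68, lies right of that of all tested genes, -0.02.

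The 5 largest rises were those of Slc16a3, Hk2, Slc2a1, Pfkl and Ldha, which act at lactate export, glucose phosphorylation, glucose uptake, the committed step of glycolysis and lactate formation. Their promoters are shown with that of Ldhb, the partner of Ldha that did not pass. Hypoxia-inducible factors are known to act on some genes of glycolysis, and their part in these changes was not tested. The windows are rat RefSeq sequences of build GRCr8, from 250 bases before to 50 after the transcript start, in the direction of the gene. They follow the rat label, whereas the counts carry mouse identifiers. If that label is wrong, the windows and their motif counts are not those of the species measured. Capitals mark ACGTG and GCGTG, the core letters of the hypoxia response element, on either strand, so that CACGT and CACGC are the same motifs read from the other strand. CACGTG holds ACGTG on both strands and counts as 2 overlapping matches.
Slc16a3 (chr10:106712078-106712377, plus strand): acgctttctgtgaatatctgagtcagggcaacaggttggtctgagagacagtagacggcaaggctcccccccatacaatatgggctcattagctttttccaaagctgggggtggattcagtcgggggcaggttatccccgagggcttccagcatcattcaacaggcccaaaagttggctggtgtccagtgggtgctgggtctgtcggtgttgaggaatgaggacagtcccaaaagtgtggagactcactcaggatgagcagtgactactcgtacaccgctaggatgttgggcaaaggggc
Hk2 (chr4:116841226-116841525, minus strand): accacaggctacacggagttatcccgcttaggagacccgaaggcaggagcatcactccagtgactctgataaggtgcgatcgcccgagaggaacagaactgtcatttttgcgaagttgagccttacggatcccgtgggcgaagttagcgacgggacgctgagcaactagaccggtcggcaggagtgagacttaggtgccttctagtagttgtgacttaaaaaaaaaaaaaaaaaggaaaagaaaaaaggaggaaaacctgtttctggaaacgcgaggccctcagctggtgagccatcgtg
Slc2a1 (chr5:138002272-138002571, plus strand): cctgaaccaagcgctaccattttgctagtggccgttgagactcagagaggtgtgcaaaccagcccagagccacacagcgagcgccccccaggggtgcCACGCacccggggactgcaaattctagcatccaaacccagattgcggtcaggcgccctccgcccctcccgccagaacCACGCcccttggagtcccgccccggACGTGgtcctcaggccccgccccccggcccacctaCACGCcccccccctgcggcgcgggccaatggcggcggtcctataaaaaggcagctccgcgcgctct
Pfkl (chr20:10663715-10664014, plus strand): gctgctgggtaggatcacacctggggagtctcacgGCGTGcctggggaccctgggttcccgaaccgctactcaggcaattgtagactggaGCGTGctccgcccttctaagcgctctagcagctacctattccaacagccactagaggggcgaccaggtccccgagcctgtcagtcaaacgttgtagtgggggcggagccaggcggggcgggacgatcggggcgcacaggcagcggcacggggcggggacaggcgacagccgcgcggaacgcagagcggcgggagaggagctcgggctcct
Ldha (chr1:106507842-106508141, plus strand): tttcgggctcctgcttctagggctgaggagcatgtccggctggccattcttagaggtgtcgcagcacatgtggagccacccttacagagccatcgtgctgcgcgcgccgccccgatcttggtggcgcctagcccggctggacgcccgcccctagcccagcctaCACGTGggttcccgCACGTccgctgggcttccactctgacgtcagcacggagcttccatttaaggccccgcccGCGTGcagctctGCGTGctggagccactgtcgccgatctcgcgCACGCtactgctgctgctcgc
Ldhb (chr4:177177359-177177658, minus strand): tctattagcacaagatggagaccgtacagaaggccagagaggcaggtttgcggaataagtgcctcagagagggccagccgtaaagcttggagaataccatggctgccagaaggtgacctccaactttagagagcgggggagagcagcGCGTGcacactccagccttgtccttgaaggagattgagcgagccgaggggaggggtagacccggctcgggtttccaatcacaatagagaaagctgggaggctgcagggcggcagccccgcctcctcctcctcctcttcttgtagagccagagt

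The windows of Slc16a3 and Hk2, the genes with the largest rises, held neither motif, whereas that of Ldha held 6 matches, that of Slc2a1 4, that of Pfkl 2 and that of Ldhb 1. Promoter windows were found for 34 of the 39 genes, 38 windows in all, with Gpi1 matched through its synonym. No window was matched for Slc2a3, Slc2a4, Pgk1, G6pdx and Pgls. Either motif occurred in 63.2% of 19 windows of genes that rose at least 2-fold, in 42.1% of 19 windows of the other members, and in 41.6% of all 33469 windows. Taken singly and in the same order, ACGTG was in 47.4%, 31.6% and 19.3%, and GCGTG in 52.6%, 10.5% and 29.7%. The members' windows came from 16 and 18 genes, so genes with several windows count more than once. The split was made by the fold changes themselves, and the difference in shares was not tested. The windows differed in base composition as well, with a median GC content of 61.7% for the genes that rose at least 2-fold, 58.0% for the other members and 51.7% for all windows, and the part of GC content in the motif shares was not tested. CACGTG alone was in 10.5% of the windows of genes that rose at least 2-fold, in 5.26% of the other members' windows and in 6.42% of all windows. TGATGNAA, the core of the site known for ATF4, was in 0 of 19 windows of genes that rose at least 2-fold, in 1 of 19 windows of the other members and in 3.98% of all windows. These matches on both strands describe letters in a short window and not binding.

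Glucose transporter genes moved apart. Slc2a1, the carrier GLUT1 that supplies basal glucose uptake, had 794, 791 and 777 CPM in the EVadMu libraries and 85.9, 85.6 and 81.0 CPM in the EVMu libraries. The groups were far apart and each was tight, and the log2 fold change was 3.23 ± 0.035 (edgeR adjusted p = 8.08e-39). Slc2a3, the carrier GLUT3 that is typical of neurons, had 69.5, 72.1 and 57.4 CPM in EVadMu and 80.3, 77.9 and 81.2 CPM in EVMu. It fell by a small amount, with EVadMu replicate 3 the lowest (-0.27 ± 0.060; edgeR adjusted p = 0.000142), and without that library the log2 fold change was -0.16 (adjusted p = 0.00602). Slc2a4, the insulin-responsive carrier GLUT4 of muscle and fat, was near the detection limit with 8, 7 and 8 reads in EVadMu and 57, 66 and 68 reads in EVMu (-3.01 ± 0.32; edgeR adjusted p = 1.55e-10). Every EVadMu library had fewer reads of it than any EVMu library. Slc2a8, an intracellular hexose carrier, had 11.8, 14.2 and 14.4 CPM in EVadMu and 10.5, 10.7 and 10.8 CPM in EVMu (0.34 ± 0.12; edgeR adjusted p = 0.00991), and this call ended when libraries were not scaled (adjusted p = 0.0795).

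Hexokinase phosphorylates glucose and holds it in the cell. Hk2, the inducible isozyme of muscle and growing cells that binds mitochondria, had 391, 385 and 381 CPM in EVadMu and 21.4, 21.3 and 21.4 CPM in EVMu, a log2 fold change of 4.18 ± 0.045 (edgeR adjusted p = 7.93e-39). Hk1, the main isozyme of brain and nerve, had 456, 469 and 444 CPM in EVadMu and 373, 361 and 377 CPM in EVMu (0.30 ± 0.032; edgeR adjusted p = 1.52e-10). Both rose, with no overlap between groups, and Hk2 by far more, while Hk1 was at 0.19 without scaling factors. Hk3, the isozyme of leukocytes, had 12, 5 and 6 reads in EVadMu and 21, 27 and 19 reads in EVMu (-1.51 ± 0.43; edgeR adjusted p = 0.00187). Reads of Hk3 were few in all 6 libraries and lower in EVadMu, where 8 of 10 tested macrophage and leukocyte markers were lower as well, 6 of them, like Hk3, tested only through EVMu. Cd68, another of these markers, went the other way, with 131 ± 3.23 CPM in EVadMu and 12.9 ± 1.90 CPM in EVMu (SD, n = 3 each). Gpi1, glucose phosphate isomerase, which makes fructose 6-phosphate, was higher in every EVadMu library, with 1134, 1150.3 and 1128 CPM in EVadMu and 464, 458 and 465 CPM in EVMu (1.30 ± 0.028; edgeR adjusted p = 2.63e-30).

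Phosphofructokinase, the committed step, is a tetramer of liver, muscle and platelet type subunits. Pfkl, the liver type subunit, had 373, 368 and 364 CPM in EVadMu and 46.7, 43.1 and 52.2 CPM in EVMu, a log2 fold change of 2.96 ± 0.047 (edgeR adjusted p = 5.07e-34). Pfkm, the muscle type, had 56.1, 54.2 and 54.9 CPM in EVadMu and 73.8, 69.8 and 75.5 CPM in EVMu (-0.41 ± 0.053; edgeR adjusted p = 1.37e-08). Pfkp, the platelet type, which is also expressed in brain, had 288, 301 and 287 CPM in EVadMu and 329.6, 332 and 337 CPM in EVMu (-0.19 ± 0.033; edgeR adjusted p = 2.92e-06). Of the 3 subunits, Pfkl rose, while Pfkm and Pfkp fell by small amounts, each with no overlap between the groups, and Pfkp was at -0.30 without scaling factors. Summed reads of the step were 715 ± 8.84 CPM in EVadMu and 453 ± 9.98 CPM in EVMu.

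Fructose 2,6-bisphosphate activates phosphofructokinase. It is made and removed by the bifunctional enzymes of the Pfkfb genes, and TIGAR is known to break it down. Pfkfb3, the isozyme with the strongest kinase bias, had 193, 190.1 and 184 CPM in EVadMu and 102, 97.8 and 96.4 CPM in EVMu (0.94 ± 0.041; edgeR adjusted p = 6.98e-21). Pfkfb4, first described in testis, had 69.5, 60.5 and 59.1 CPM in EVadMu and 39.2, 38.6 and 39.1 CPM in EVMu (0.69 ± 0.062; edgeR adjusted p = 3.21e-12). These isozymes rose by less than 2-fold. Pfkfb2, the heart isozyme, had 10.6, 13.3 and 10.6 CPM in EVadMu and 15.4, 14.7 and 16.7 CPM in EVMu (-0.44 ± 0.12; edgeR adjusted p = 0.000901). Pfkfb1, the liver and muscle isozyme, had 7, 15 and 9 reads in EVadMu and 40, 37 and 24 reads in EVMu (-1.68 ± 0.39; edgeR adjusted p = 0.000191). Tigar had 15.4, 18.0 and 16.4 CPM in EVadMu and 26.2, 27.0 and 28.4 CPM in EVMu (-0.72 ± 0.089; edgeR adjusted p = 6.87e-09). All EVadMu libraries lay below all EVMu libraries for Pfkfb1, Pfkfb2 and Tigar.

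From aldolase to pyruvate kinase the main gene of each step rose, by 1.24 to 1.61 on the log2 scale. Aldoa, the main aldolase, had 2679, 2763 and 2739 CPM in EVadMu and 979.7, 988 and 994 CPM in EVMu (1.47 ± 0.025; edgeR adjusted p = 3.41e-33). The other row named Aldoa (ENSMUSG00000114515) held 116, 109 and 84 reads in EVadMu and 80, 61 and 78 reads in EVMu (0.52 ± 0.18; edgeR adjusted p = 0.00921), and which reads fall to which row cannot be told from the counts. Aldoc, the aldolase of brain, rose with 71.1, 64.5 and 71.3 CPM in EVadMu and 19.6, 19.97 and 19.0 CPM in EVMu (1.82 ± 0.067; edgeR adjusted p = 2.93e-23). Each of these rows was higher in all EVadMu libraries than in any EVMu library. Tpi1, the triose isomerase, had 713, 710.2 and 728 CPM in EVadMu and 304, 297 and 312 CPM in EVMu (1.24 ± 0.030; edgeR adjusted p = 2.01e-28). Pgk1, which makes the first ATP of the pathway, had 1348, 1329 and 1397 CPM in EVadMu and 474, 466 and 463 CPM in EVMu (1.54 ± 0.028; edgeR adjusted p = 3.97e-32). Both rose by amounts close to that of Aldoa. Gapdh, the dehydrogenase before Pgk1, had only 375, 299 and 321 reads in EVadMu and 94, 123 and 133 reads in EVMu (1.53 ± 0.12; edgeR adjusted p = 1.31e-13). It was higher in every EVadMu library, but it has many processed copies in rodent genomes that can share its reads, and the treatment of reads with several hits is not given in the sources used here, so its value is uncertain.

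Pgam1, the widely expressed phosphoglycerate mutase, had 679.6, 673 and 697 CPM in EVadMu and 228, 233 and 221 CPM in EVMu (1.59 ± 0.032; edgeR adjusted p = 4.25e-31). Pgam2, the muscle mutase, had 95, 91 and 94 reads in EVadMu and 58, 56 and 64 reads in EVMu (0.67 ± 0.18; edgeR adjusted p = 0.00112). Both rose without overlap, Pgam1 by more. Eno1, the ubiquitous enolase, had 2108, 2184 and 2241 CPM in EVadMu and 726, 717 and 694 CPM in EVMu (1.61 ± 0.028; edgeR adjusted p = 5.60e-33). Eno2, the enolase of neurons, had 411, 421 and 435 CPM in EVadMu and 254, 242 and 259 CPM in EVMu (0.75 ± 0.034; edgeR adjusted p = 2.05e-20). Of 12 neuron markers in the same libraries, 10 were lower and 1, Snap25, was higher, and the part of neuron content in the Eno2 value was not tested. Eno3, the muscle enolase, had 117, 112 and 102 reads in EVadMu and 92, 63 and 87 reads in EVMu (0.47 ± 0.17; edgeR adjusted p = 0.0119), and its call ended without library scaling (adjusted p = 0.0525) or without EVMu replicate 2 (adjusted p = 0.0835). Pgam2 and Eno3 were higher in the same libraries as 5 of 6 tested skeletal muscle markers, 3 of which were tested only through EVadMu. Of the others, Acta1 was at 14.3 ± 1.254 CPM in EVadMu and 1.41 ± 0.194 CPM in EVMu, and Des was lower, at 3.00 ± 1.06 CPM in EVadMu and 5.63 ± 0.186 CPM in EVMu (SD, n = 3 each). Among other members named here as muscle types, Hk2 and Ldha rose, while Slc2a4, Pfkm and Pfkfb1 fell. The part of muscle RNA in these values was not tested. Pkm, pyruvate kinase, had 2440.3, 2459 and 2433 CPM in EVadMu and 945, 927 and 964 CPM in EVMu (1.37 ± 0.025; edgeR adjusted p = 3.82e-32). Pkm was higher in every EVadMu library, and gene counts do not tell its splice forms apart.

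Named copies of these genes held few reads next to their parents. Of 19 rows named as copies or pseudogenes, 7 had no counts in any library and 4 reached 20 reads in some library. Eno1b, a near copy of Eno1, summed to 1449 reads over the EVadMu libraries and 531 over the EVMu libraries and rose like Eno1 (1.47 ± 0.093; edgeR adjusted p = 2.78e-16). Pgam1-ps2 summed to 372 reads in EVadMu and 204 in EVMu. Gapdh-ps15 had 5 reads in EVadMu and 3 in EVMu. Copies without such names were not searched for, so values of Aldoa, Gapdh, Pgk1, Pgam1, Eno1 and Ldha carry that uncertainty.

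**Figure D3:**
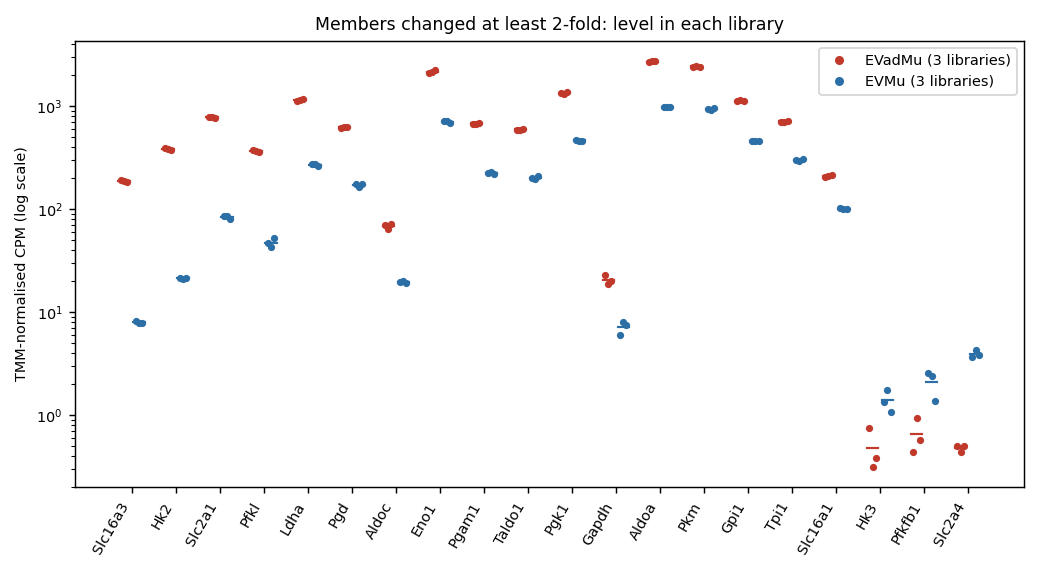
TMM-normalised CPM on a log axis for the 20 rows changed at least 2-fold, with 1 point per library and a line at each group mean, EVadMu left of EVMu, ordered by log2 fold change. The groups are separate for each row, and the 3 rows that fell (Hk3, Pfkfb1 and Slc2a4) lie below 5 CPM in every library.

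Lactate dehydrogenase is a tetramer of a muscle type chain, Ldha, which favours lactate formation, and a heart type chain, Ldhb, which favours its oxidation. Ldha had 1122, 1144 and 1192 CPM in EVadMu and 274, 273 and 264 CPM in EVMu, a log2 fold change of 2.09 ± 0.031 (edgeR adjusted p = 5.57e-35). Ldhb had 99.7, 106 and 102 CPM in EVadMu and 103, 106 and 100.3 CPM in EVMu (-0.01 ± 0.045; edgeR adjusted p = 0.824). The groups of Ldhb overlapped, and its value moved to either side with the scaling, to 0.0089 with RLE factors and to -0.12 without scaling factors, where edgeR called it lower (adjusted p = 0.0127). Lactate leaves through the transporter MCT4, encoded by Slc16a3, which is known for glycolytic cells. Slc16a3 had 192, 187 and 186 CPM in EVadMu and 8.18, 7.91 and 7.88 CPM in EVMu, and its 23.6-fold rise was the largest of the 40 rows (4.56 ± 0.061; edgeR adjusted p = 4.17e-36). Slc16a1, the widespread transporter MCT1, had 207, 210.3 and 215 CPM in EVadMu and 103, 102 and 99.9 CPM in EVMu (1.05 ± 0.040; edgeR adjusted p = 6.19e-23). Slc16a7, the high-affinity transporter MCT2 through which neurons are known to take up lactate, had 19.1, 17.7 and 18.0 CPM in EVadMu and 33.4, 31.3 and 29.1 CPM in EVMu (-0.77 ± 0.084; edgeR adjusted p = 3.43e-10). Of the 3 transporters, MCT4 and MCT1 transcripts rose and MCT2 transcripts fell, each without overlap.

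In the oxidative branch of the pentose phosphate pathway the first enzyme and the last moved in opposite directions. G6pdx, glucose 6-phosphate dehydrogenase, which sets the entry to the branch and makes NADPH, had 50.6, 50.6 and 53.1 CPM in EVadMu and 73.3, 79.6 and 80.3 CPM in EVMu (-0.60 ± 0.054; edgeR adjusted p = 3.41e-12). Pgd, which makes NADPH at the third step, had 616, 637 and 629 CPM in EVadMu and 176, 166 and 176 CPM in EVMu (1.86 ± 0.033; edgeR adjusted p = 1.63e-32). The groups of both genes were separate, G6pdx lower and Pgd higher in EVadMu. Pgls, the lactonase between them, had 43.0, 42.2 and 45.3 CPM in EVadMu and 38.9, 39.5 and 37.1 CPM in EVMu (0.18 ± 0.063; edgeR adjusted p = 0.0113), a call that ended without scaling factors (adjusted p = 0.347), with upper-quartile factors (0.0689), without a filter (0.103) and without EVMu replicate 3 (0.0691). The non-oxidative branch links ribose phosphates to glycolysis. Taldo1, transaldolase, had 596, 593 and 610.1 CPM in EVadMu and 201, 198 and 211 CPM in EVMu (1.56 ± 0.033; edgeR adjusted p = 2.17e-30), and Tkt, transketolase, rose by less, with 365, 362 and 388 CPM in EVadMu and 306, 317 and 312 CPM in EVMu (0.26 ± 0.033, or 0.14 without scaling factors; edgeR adjusted p = 1.54e-08). Rpia, the ribose phosphate isomerase, had 14.4, 16.9 and 17.2 CPM in EVadMu and 13.0, 13.0 and 14.7 CPM in EVMu (0.25 ± 0.11; edgeR adjusted p = 0.0340). Its groups overlapped, and the call ended under 8 of 14 alternatives, with adjusted p of 0.0502 to 0.238, among them leaving out EVMu replicate 1 or 2 or EVadMu replicate 2 or 3. Rpe, the epimerase of the same branch, had 39.4, 36.0 and 34.2 CPM in EVadMu and 35.8, 32.0 and 33.9 CPM in EVMu and did not pass (0.11 ± 0.072; edgeR adjusted p = 0.167).

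Summed over the genes of a step, reads were higher in EVadMu at all 14 steps. A sum can rise while members fall, as at glucose transport, phosphofructokinase and fructose 2,6-bisphosphate control. The last of these also adds Tigar, known to break this molecule down, to the Pfkfb genes, so its sum has no single direction of effect. Glucose transport had the largest ratio, 4.86-fold, with 868 ± 15.8 CPM in EVadMu and 179 ± 1.78 CPM in EVMu (SD, n = 3 each). Lactate dehydrogenase followed at 3.36-fold, and control of fructose 2,6-bisphosphate had the smallest ratio, 1.54-fold, with 281 ± 9.12 CPM in EVadMu and 183 ± 2.78 CPM in EVMu. Every step reached the smallest p that an exact two-sided permutation test of 3 against 3 libraries allows, 0.1, so none could pass 0.05. The oxidative branch summed to 722 ± 11.1 CPM in EVadMu and 289 ± 3.82 CPM in EVMu although its first enzyme fell, and Pgd held most of these reads.

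**Figure D4:**
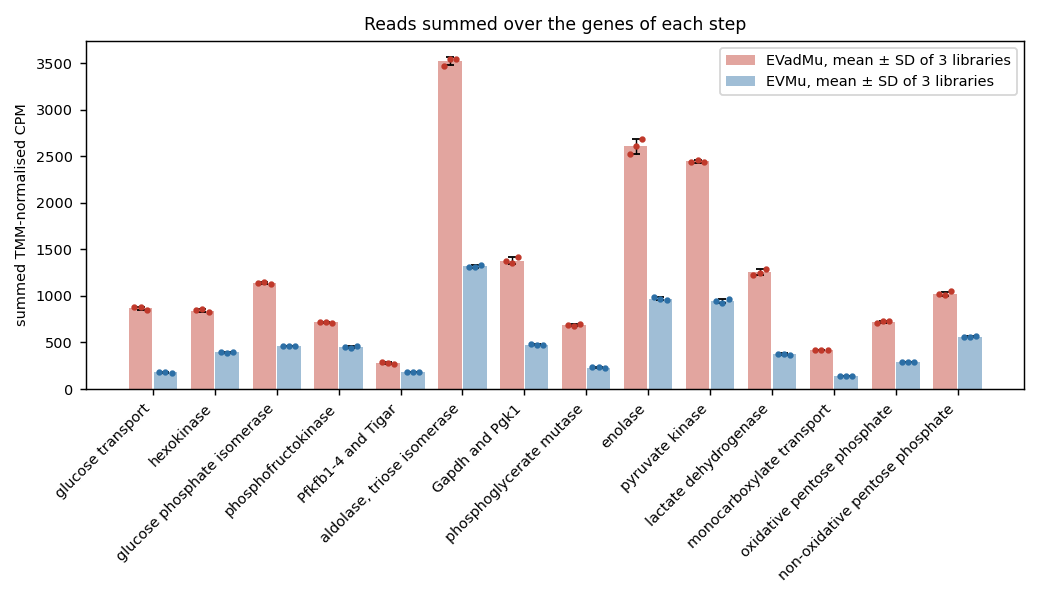
Reads summed over the genes of each step, in TMM-normalised CPM, with bars at the mean of 3 libraries, error bars of 1 SD and 1 point per library, EVadMu left of EVMu. Each pair of bars compares the groups within a step; bars of different steps are not corrected for gene length and are not comparable.

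Isozyme choice was followed through the ratio of reads of 2 genes within a library, which does not depend on how libraries are scaled. The pairs Pgd to G6pdx, Tkt to G6pdx and Pfkfb3 to Tigar set different enzymes side by side, not isozymes. Gene lengths were not used, so a ratio is read only for its change between groups. The ratio of Hk2 to Hk1 reads was 0.859, 0.822 and 0.859 in EVadMu and 0.0573, 0.0588 and 0.0567 in EVMu, a 14.7-fold change. Slc16a3 to Slc16a1 was 0.929, 0.891 and 0.863 in EVadMu and 0.0794, 0.0777 and 0.0788 in EVMu (11.3-fold). Slc2a1 to Slc2a3 was 11.4, 11.0 and 13.5 in EVadMu and 1.07, 1.10 and 0.997 in EVMu (11.3-fold). All these ratios moved by over 10-fold, and so did that of Pfkl to Pfkm, at 6.65, 6.80 and 6.63 in EVadMu and 0.633, 0.617 and 0.692 in EVMu (10.3-fold). Ldha to Ldhb was 11.3, 10.8 and 11.7 in EVadMu and 2.66, 2.57 and 2.63 in EVMu (4.30-fold), and Pgd to G6pdx changed 5.49-fold.

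Smaller shifts were found for Pfkfb3 to Tigar (3.14-fold), Pfkfb3 to Pfkfb2 (2.60-fold), Pfkfb4 to Pfkfb2 (2.19-fold), Eno1 to Eno2 (1.82-fold), Tkt to G6pdx (1.803-fold) and Pfkp to Pfkm (1.16-fold). Ratios that were lower in EVadMu were those of Slc16a7 to Slc16a1 (log2 difference -1.82), Pgam2 to Pgam1 (-0.92) and Aldoa to Aldoc (-0.35). Eno3 to Eno2 overlapped between the groups, with a log2 difference of -0.26 (exact permutation p = 0.2). In all, 15 of 16 ratios did not overlap, 12 higher and 3 lower in EVadMu, where 80.7% of single tested genes did not overlap. The split of 12 and 3 depends on which gene of a pair was put first. Pairs were chosen with earlier results known and several share a gene, so their count is not comparable with the share of single genes. Each of the 15 had the smallest two-sided p that an exact permutation test of 3 against 3 allows, 0.1 (0.107 after Benjamini-Hochberg adjustment over the 16), so none passed 0.05.

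**Figure D5:**
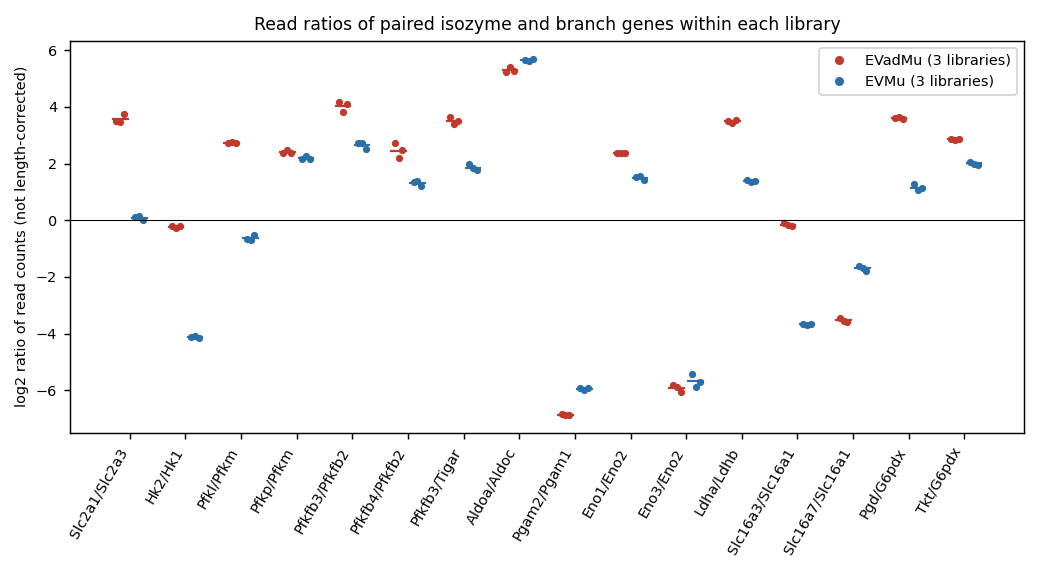
Log2 ratio of the read counts of 2 genes within each library for the 16 pairs, with 1 point per library and a line at each group mean, EVadMu left of EVMu. A value of 0 means equal reads, not equal transcripts, as lengths were not used; EVadMu lies above EVMu for 12 pairs, below it for 3, and overlaps it for Eno3 to Eno2.

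Other genes of these routes, a list of 42 compiled by function, were as often higher as lower. Of 31 tested, 13 were higher (39.2% of all tested genes were), 13 were lower (40.8%) and 5 did not pass, with a median log2 fold change of -0.09. That median turned positive when EVMu replicate 2 (0.0752) or 3 (0.159) or EVadMu replicate 1 (0.0825) was left out. Several that act beside glycolysis rose. Pck2, the mitochondrial phosphoenolpyruvate carboxykinase, had 438 ± 7.28 CPM in EVadMu and 86.3 ± 3.05 CPM in EVMu (SD, n = 3 each; log2 fold change 2.34 ± 0.037, edgeR adjusted p = 6.30e-34). Pdk1, the kinase that restrains pyruvate dehydrogenase, had 68.3 ± 0.527 CPM in EVadMu and 17.6 ± 0.255 CPM in EVMu (1.95 ± 0.065). The phosphoglucomutase genes Pgm1 and Pgm2, at the link to glycogen, rose by 1.79 ± 0.044 and 1.31 ± 0.067, and Pcx, pyruvate carboxylase, by 1.03 ± 0.053. Bsg, basigin, the chaperone that brings MCT1 and MCT4 to the membrane, had 807 ± 6.21 CPM in EVadMu and 376 ± 14.8 CPM in EVMu (1.10 ± 0.031).

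Txnip, whose protein restrains glucose uptake, fell to 18.6 ± 0.965 CPM in EVadMu, against 98.3 ± 4.43 CPM in EVMu (-2.40 ± 0.062; edgeR adjusted p = 9.80e-28). H6pd, the hexose 6-phosphate dehydrogenase of the endoplasmic reticulum, was at 10.5 ± 0.765 CPM in EVadMu and 67.6 ± 4.45 CPM in EVMu (-2.69 ± 0.079). Both were lower in every EVadMu library. Shpk, sedoheptulokinase of the non-oxidative branch, was at 5.14 ± 0.778 CPM in EVadMu and 36.6 ± 2.22 CPM in EVMu (-2.83 ± 0.11), and Slc16a8, the transporter MCT3 known from the retinal pigment epithelium, at 1.59 ± 0.129 CPM in EVadMu and 19.4 ± 1.88 CPM in EVMu (-3.60 ± 0.16). Of the 10 genes named here, 6 rose and 4 fell. They were named because they passed edgeR's adjusted threshold with at least a 2-fold change, and 13 genes met the thresholds for naming before the limit of 10. Of the 31 tested genes of the list, 9 rose and 6 fell by at least 2-fold, where 17.6% and 23.5% of all tested genes did.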

How the data were processed

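Whole-number counts of reads per gene in 6 RNA-seq libraries (3 per group) were used as the authors deposited them. Tools listed in the submitters' processing notes are HISAT2, featureCounts, SAMtools and CASAVA 1.8, with build mm39. Strand setting and handling of reads with several hits: not given in the sources used here. Per the labels, library preparation had no stated strand-marking step. Groups and replicate numbers came from the sample titles.

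Counts were fitted over all genes in R 4.3.3 with edgeR 4.0.16 (default expression filter with minimum count 10 and minimum total 15, TMM factors, quasi-likelihood F-test, Benjamini-Hochberg adjustment over 16993 genes, threshold 0.05). The standard error is the log2 fold change divided by the square root of F. The biological coefficient of variation was 4.07%. Library pairs of a group differed by 2.10 to 3.13 times counting variance, so none was taken as a duplicate. Ratios had 0.5 added to each count for tests. The fit was tested on simulated data with far fewer changed genes than were called here. That run thus does not test scaling under so broad a change. Alternatives were other scalings, filters, DESeq2 1.42.0, limma-voom (limma 3.58.1), a replicate block and leaving out each library.

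The members, lists and pairs were chosen with earlier results of these data known. All members are named. Library values are given for members that changed at least 2-fold, went against the majority or share a step with these. Of the other list, called genes with a change of at least 2-fold and a mean CPM of at least 1 were named, up to 10 by smallest p. Promoters came from RefSeq (GRCr8), matched by symbol.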

Additional observations from a re-analysis of the deposited data

How the results depend on the processing

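Depth limits Slc2a4, Hk3 and Pfkfb1, which had 5 to 15 reads per EVadMu library. Over the 14 alternatives, 34 of 40 rows kept direction and call wherever they were tested. Hk3, counted among the 34, was not tested under the strict filter. The others were Slc2a8, Eno3, Ldhb, Pgls, Rpia and Rpe. Members called higher numbered 24 to 28 and lower 9 to 11, with 9 only under the strict filter, where 39 of the 40 were tested. Without scaling factors the median of all tested genes shifted by -0.11 (0.10 without a filter), the members' median was 0.57 with 24 higher and 11 lower, and that of the other 31 genes was -0.20. Leaving out 1 library gave medians of 0.66 to 0.72 for the members and -0.0564 to 0.159 for the other list, which turned positive without EVMu replicate 2 (0.0752) or 3 (0.159) or EVadMu replicate 1 (0.0825), when 33 to 35 genes were tested. Ldhb turned to 0.0089 with RLE factors and DESeq2, ranged over -0.0393 to 0.022 when 1 library was left out (above 0 without EVMu replicate 2 or EVadMu replicate 1 or 3), and was lower at -0.12 (adjusted p = 0.0127) without scaling factors. Rpe turned to -0.0052 without scaling factors. The cause of these turns was not tested. Same-numbered libraries of the groups did not deviate together (r = -0.0096 to -0.0037). This showed no pairing by number, but with so few libraries a weak pairing could go unseen, and the labels do not state one. With the replicate block 28 members were higher and 10 lower, at a median of 0.68, and 13 and 13 of the other list. In that block the read ratios kept their differences (3.88 for Hk2 to Hk1), with a smallest sign-flip p of 0.25. No ratio changed direction under its 8 alternatives.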

Other observations

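Members of the other list that fell outside the rule for naming, or beyond its limit of 10, are added here, chosen after their values were seen. Emb, embigin, which like basigin is a chaperone of monocarboxylate transporters, fell to 71.1 ± 4.42 CPM in EVadMu, against 115 ± 2.93 CPM in EVMu (SD, n = 3 each; log2 fold change -0.70 ± 0.049, edgeR adjusted p = 4.55e-15), whereas Bsg rose. The phosphoribosyl pyrophosphate synthetase genes, which take ribose phosphate into nucleotide synthesis, also parted: Prps1 had 69.8 ± 1.03 CPM in EVadMu and 39.9 ± 1.58 CPM in EVMu (0.81 ± 0.056), and Prps2 had 12.3 ± 0.825 CPM in EVadMu and 35.7 ± 2.10 CPM in EVMu (-1.54 ± 0.089). Slc2a10, a hexose carrier gene, rose (1.23 ± 0.16), and Slc2a5, the fructose carrier GLUT5, had 77 reads over the EVadMu libraries and 10 over the EVMu libraries (2.92 ± 0.48; edgeR adjusted p = 1.51e-06). Slc2a5 reached the filter's level only in EVadMu, so its entry into the test already favoured a rise. Bpgm, the bisphosphoglycerate mutase known from red cells, fell (-1.01 ± 0.10; edgeR adjusted p = 4.71e-11). The subunit genes of the mitochondrial pyruvate carrier, Mpc1 and Mpc2, rose by 0.56 ± 0.091 and 0.63 ± 0.061, less than Ldha.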
